A study of Mus musculus with 4 samples.

Results

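Glycan-building transferases are the Golgi enzymes that lengthen, branch, cap or sulfate the sugar chains of glycoproteins, glycolipids and proteoglycans. They were taken as the genes whose platform-annotation symbol begins with Galnt, Gcnt, B3gnt, B4galt, B3galt, Mgat, St3gal, St6gal, St6galnac, St8sia, Fut or Chst followed by a digit, or is C1galt1 or C1galt1c1. This gave 93 of the 19505 genes tested, in 13 families, each with 1 probe set. C1galt1c1, a chaperone rather than a transferase, was counted with C1galt1. The study set mouse T cells cultured under a Tc9 cytokine condition (2 arrays) against mouse T cells cultured under a Tc1 cytokine condition (2 arrays), and asked how their gene expression differs. Tc9 is the field's name for CD8 T cells that make interleukin 9, and Tc1 for CD8 T cells that make interferon gamma. The labels used here name no strain, genotype, age, cytokine or culture time. They number the arrays 1 and 2 in each group and do not say whether each array had its own culture or animal, so the p-values measure only the spread between these arrays, which may be technical.

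Sugar chains are built stepwise as a protein passes through the Golgi. Galnt enzymes start mucin-type O-glycans by placing N-acetylgalactosamine on serine or threonine, C1galt1 adds galactose to make core 1, and Gcnt enzymes add the branch that makes core 2. On N-glycans, Mgat enzymes add the N-acetylglucosamine branches, and B4galt and B3gnt enzymes extend them as N-acetyllactosamine. St3gal, St6gal, St6galnac and St8sia enzymes cap chains with sialic acid, Fut enzymes add fucose, and Chst enzymes add sulfate. On T cells these chains are known to carry ligands of selectins, galectins and siglecs, and core 1 sialylation is a classical difference between naive and activated CD8 T cells.

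The promoters of 4 members are shown because these genes differed most between Tc9 and Tc1, 2 in each direction, among those past the test with replicate number as a block, with 1 annotated start and a signal above the negative controls in at least 1 group. Each sequence holds 250 bases before the start and 50 from the start on, from RefSeq on GRCm38.p6, in the direction of the gene. Galnt3 (chr2:66124744-66125043, minus strand) and St8sia4 (chr1:95667545-95667844, minus strand) were lower in Tc9. B4galt1 (chr4:40853935-40854234, minus strand) and Galnt10 (chr11:57645192-57645491, plus strand) were higher in Tc9. Capitals mark a match to 1 of 3 motifs searched on both strands.
Galnt3: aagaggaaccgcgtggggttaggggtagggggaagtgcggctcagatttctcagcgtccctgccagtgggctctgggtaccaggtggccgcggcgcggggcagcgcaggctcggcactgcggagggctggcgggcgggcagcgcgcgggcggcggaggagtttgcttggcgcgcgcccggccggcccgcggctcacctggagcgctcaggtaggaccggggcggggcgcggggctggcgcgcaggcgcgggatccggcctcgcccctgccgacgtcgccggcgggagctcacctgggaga
St8sia4: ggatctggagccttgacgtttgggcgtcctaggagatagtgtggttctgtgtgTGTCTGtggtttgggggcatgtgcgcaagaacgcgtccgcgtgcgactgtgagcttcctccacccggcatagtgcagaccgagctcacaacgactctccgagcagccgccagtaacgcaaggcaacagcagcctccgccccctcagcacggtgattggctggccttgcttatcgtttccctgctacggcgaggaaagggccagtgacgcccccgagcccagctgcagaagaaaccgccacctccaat
B4galt1: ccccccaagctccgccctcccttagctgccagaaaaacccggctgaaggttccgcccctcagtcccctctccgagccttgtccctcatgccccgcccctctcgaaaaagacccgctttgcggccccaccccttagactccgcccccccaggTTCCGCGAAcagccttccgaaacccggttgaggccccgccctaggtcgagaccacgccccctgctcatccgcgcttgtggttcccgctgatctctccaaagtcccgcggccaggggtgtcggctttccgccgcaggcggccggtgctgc
Galnt10: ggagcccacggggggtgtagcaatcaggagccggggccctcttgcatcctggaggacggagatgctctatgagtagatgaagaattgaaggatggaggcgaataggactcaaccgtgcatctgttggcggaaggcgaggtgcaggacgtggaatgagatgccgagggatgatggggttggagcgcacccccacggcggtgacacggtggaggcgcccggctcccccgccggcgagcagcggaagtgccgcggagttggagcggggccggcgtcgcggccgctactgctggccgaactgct
The GC content of the windows was 76.7% for Galnt3, 61.3% for St8sia4, 68.3% for B4galt1 and 66.0% for Galnt10, against a median of 52.7% over 32851 promoters of the table. They held 41, 22, 26 and 28 CpG dinucleotides in the same order, against a median of 7. The motifs were the T-box site GGTGTGA, the interferon and STAT site TTCNNNGAA and the Smad box CAGACA. St8sia4 held the Smad box on the other strand (TGTCTG), 197 bases before the start, and B4galt1 held 1 STAT-type match (TTCCGCGAA), 99 bases before the start. Of all promoters, 3.98% held the T-box letters, 8.30% the STAT letters and 21.0% the Smad letters. The shares of the 98 promoters listed for 71 of the members were 2.04%, 6.12% and 17.3%. These matches describe the letters of the windows only.

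Of the 93 transferase genes, 1 passed the test between Tc9 and Tc1: Galnt3, which was lower in Tc9. The test was limma on log2(intensity + 16) after quantile normalization, with adjustment over all 19505 genes and a threshold of 0.05. No member passed as higher in Tc9, against 0.385% of all genes, and 1 passed as lower, against 0.179% of all genes. Before adjustment, 9 members (9.68%) were higher with a p under 0.05, against 2.94% of all genes, and 6 (6.45%) were lower, against 2.34% of all genes. With the replicate number as a block, 12 members (12.9%) passed as higher in Tc9, against 6.34% of all genes, and 7 (7.53%) as lower, against 7.37% of all genes. The block fit has 1 residual degree of freedom and gives every gene of like intensity the same spread, so its p-values are very small and say little about other cultures. In bulk RNA, a lower level can be fewer cells of a type or less RNA per cell, and these cannot be told apart.

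As a list, the transferases were centred near 0. Their median log2 difference, Tc9 minus Tc1, was -0.011 (range -2.15 to 0.84), beside -0.0027 for all genes. The median absolute difference was 0.104, beside 0.108 for all genes. An absolute difference of at least 0.5 was seen in 15 members (16.1%, against 4.87% of all genes). Both Tc9 arrays lay above both Tc1 arrays for 22 members (23.7%, against 14.0% of all genes), and below them for 17 (18.3%, against 15.1% of all genes), while 54 overlapped. The difference had the same sign within both replicate numbers for 65 members (69.9%, against 62.0% of all genes).

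Most of the transferases were dim on the array. A probe set was called above the negative controls where its deposited intensity passed the 95th percentile of 5222 negative control probe sets on that array. On all 4 arrays, 25 members did so, 9 did so on 1 to 3 arrays, and 59 on none. Among the 25, 10 passed with the block (40.0%), against 29.0% of the 6354 genes above the controls on all 4 arrays. Of the 25, 7 were higher (28.0%, against 13.1% of the 6354) and 3 lower (12.0%, against 15.9% of the 6354). Among the 59 dim members 5 passed with the block (8.47%), and their differences rest on signals inside the range of the negative controls. The share of all genes, 13.7%, includes the 6354 brighter genes, of which 29.0% passed. It is therefore not a like background for the dim members, and the share among equally dim genes is not given here.

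**Figure D1:**
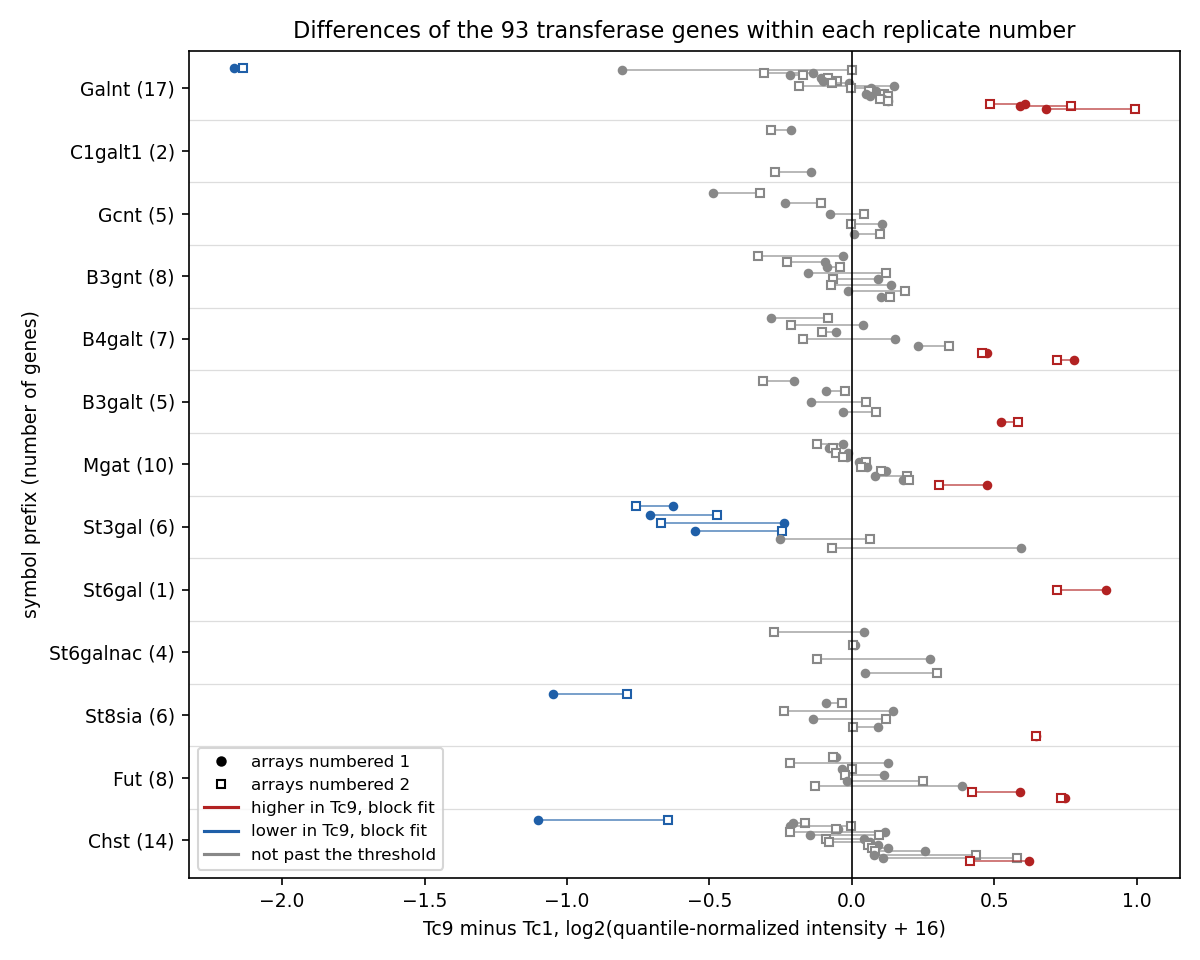
Each row is 1 transferase gene and shows its difference, Tc9 minus Tc1, in log2(quantile-normalized intensity + 16) within the arrays numbered 1 (circles) and within those numbered 2 (squares), grouped by symbol prefix with the number of genes in brackets. Colour marks the genes past the limma threshold with the replicate number as a block, 12 higher (red) and 7 lower (blue) in Tc9. Galnt3 lies far to the left of the others, and 4 of the 6 St3gal genes lie to the left of 0 in both numbers.

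The Galnt family, which starts mucin-type O-glycans, held both the member that fell and 3 that were higher in Tc9 with the block. Galnt3, the enzyme that in human protects the hormone FGF23 from cleavage by O-glycosylating it, had normalized intensities of 29.8 and 31.1 on the Tc9 arrays, against 190 and 191 on the Tc1 arrays. The groups lay far apart, and the arrays of each group lay close together. The log2 difference was -2.15 ± 0.23 (SE of the fit, n = 2 per group; 95% interval -2.70 to -1.60; limma adjusted p = 0.0123), which is 4.45-fold lower by the measured means on that scale. Galnt3 was above the negative controls on both Tc1 arrays and on neither Tc9 array, so the Tc9 level is a bound. By the measured means the gene was at least 1.17-fold lower. On the deposited values without quantile normalization, the adjusted p was 0.0996.

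Galnt10 and Galnt6 were the bright members of the family that passed with the block. Galnt10, which is known to prefer peptides that already carry N-acetylgalactosamine, had 805 and 858 in Tc9, against 530 and 498 in Tc1. Its groups did not overlap, with a log2 difference of 0.68 ± 0.15 (limma adjusted p = 0.179 without and 1.65e-13 with the block). Galnt6, an initiating enzyme best known from breast tissue in human, had 406 and 434 in Tc9, against 261 and 305 in Tc1. Its groups lay apart too, and the log2 difference was 0.55 ± 0.18 (adjusted p = 0.561 without and 9.46e-06 with the block).

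The rest of the family gave no such difference on well-measured probe sets. Galnt1 and Galnt2 are the widely expressed initiating enzymes. Galnt1 had 408 and 590 in Tc9, against 394 and 544 in Tc1, and its groups overlapped. Galnt2 had 516 and 545 in Tc9, against 493 and 497 in Tc1, a log2 difference of 0.10 ± 0.15. Its Tc9 arrays lay just above its Tc1 arrays, by less than the error of the fit. Galnt7, which like Galnt10 follows other Galnt enzymes, had 251 and 235 in Tc9, against 225 and 270 in Tc1, and its groups overlapped. Galnt12 had 96.7 and 123 in Tc9, against 181 and 123 in Tc1, so its difference of -0.81 within number 1 was 0.0017 within number 2, and it was above the negative controls on no array. Galnt9 passed with the block (112.9 and 73.9 in Tc9, against 64.5 and 29.2 in Tc1; block adjusted p = 2.19e-05), but it too was below the negative controls on all 4 arrays. Of the 17 Galnt genes, 3 were higher with the block (17.6%, against 6.34% of all genes) and 1 lower (5.88%, against 7.37% of all genes). The family's median log2 difference was 0.034.

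The core 1 step gave lower values in Tc9 that did not pass in either fit. C1galt1, the core 1 galactosyltransferase, had 455 and 380 in Tc9, against 504 and 461 in Tc1, a log2 difference of -0.21 ± 0.17. C1galt1c1, the chaperone Cosmc that C1galt1 needs to fold, had 155.4 and 125 in Tc9, against 183 and 155.4 in Tc1, a log2 difference of -0.25 ± 0.23. In C1galt1 both Tc9 arrays lay below both Tc1 arrays, and in C1galt1c1 the groups all but touched, with adjusted p-values with the block of 0.175 and 0.312.

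The 5 Gcnt genes, the core 2 and I-branch enzymes, were all below the negative controls on all 4 arrays. Gcnt1, whose core 2 branch carries P-selectin ligands on T cells, had 21.0 and 33.6 in Tc9, against 18.4 and 33.7 in Tc1. Gcnt2, the I-branching enzyme, had 36.8 and 53.4 in Tc9, against 46.3 and 58.7 in Tc1. Both overlapped, and each pair of arrays with 1 number lay closer together than the 2 arrays of a group. No Gcnt gene passed in either fit (Gcnt4 passed only with the block and no intensity trend, adjusted p = 0.0429). With the block 13.7% of all genes passed, and 5 genes are too few to set 0 apart from that share.

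Among the galactosyltransferases and the enzymes of N-acetyllactosamine, B4galt1 had the largest difference. B4galt1 adds galactose to N-acetylglucosamine and is the main maker of N-acetyllactosamine, and it had 1529 and 1911 in Tc9, against 883 and 1153 in Tc1. Both Tc9 arrays lay above both Tc1 arrays, and the log2 difference was 0.75 ± 0.18 (limma adjusted p = 0.243 without and 1.29e-26 with the block). Within the arrays numbered 1 the difference was 0.78 and within those numbered 2 it was 0.72. The second B4galt gene past the block was B4galt7, which adds the first galactose of the linker that joins glycosaminoglycans to proteins. It had 222 and 189 in Tc9, against 155 and 133 in Tc1 (log2 difference 0.47 ± 0.22; adjusted p = 0.00826 with the block). B4galt7 passed the negative controls on both Tc9 arrays and neither Tc1 array. By the measured means it was at least 1.15-fold higher in Tc9, a bound that takes no account of the spread between arrays. B4galt7 did not pass without the block.

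The partners of B4galt1 in chain extension showed no such gap. B3gnt2, the main enzyme of polylactosamine extension, had 1291 and 1394 in Tc9, against 1202 and 1269 in Tc1. Its Tc9 arrays lay just above its Tc1 arrays, and the log2 difference of 0.12 ± 0.13 did not pass in either fit (block adjusted p = 0.307). B4galt5, a lactosylceramide synthase, had 846 and 1049 in Tc9, against 879 and 1128 in Tc1, and overlapped. B4galt3, another N-acetyllactosamine maker, had 363 and 382 in Tc9, against 353 and 445 in Tc1. B3gnt3, which extends core 1 O-glycans, had 209 and 183 in Tc9, against 195 and 192 in Tc1. Both overlapped between the groups. None of the 8 B3gnt genes passed with the block, against 13.7% of all genes, and 8 genes are too few to set 0 apart from that share. Their log2 differences ran from -0.18 to 0.12. Of the 5 B3galt genes only B3galt4, which makes the ganglioside GM1, passed with the block (133 and 138 in Tc9, against 87.6 and 86.8 in Tc1; block adjusted p = 0.00597), below the negative controls on all 4 arrays. B3galt6, which adds the next galactose of the glycosaminoglycan linker after B4galt7, had 154 and 135 in Tc9, against 180 and 172 in Tc1. Its Tc9 arrays were the lower, with a log2 difference of -0.26 ± 0.21 that did not pass in either fit.

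Of the 10 Mgat genes, which branch N-glycans, 1 passed with the block, as higher in Tc9 (10.0%, against 6.34% of all genes). Mgat5 adds the branch that carries polylactosamine and is known, from mouse knockouts, to restrain T cell receptor signalling. It had 766 and 629 in Tc9, against 547 and 506 in Tc1. The Tc9 arrays were the higher (log2 difference 0.39 ± 0.16; limma adjusted p = 0.943 without and 0.000180 with the block). Mgat1, the gate to all complex N-glycans, had 163 and 370 in Tc9, against 153 and 322 in Tc1. Mgat2, which adds the next branch, had 2083 and 1677 in Tc9, against 2107 and 1715 in Tc1. Both followed the array number rather than the culture, with log2 differences of 0.14 ± 0.44 and -0.02 ± 0.16. The other Mgat genes lay between -0.08 and 0.19.

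**Figure D2:**
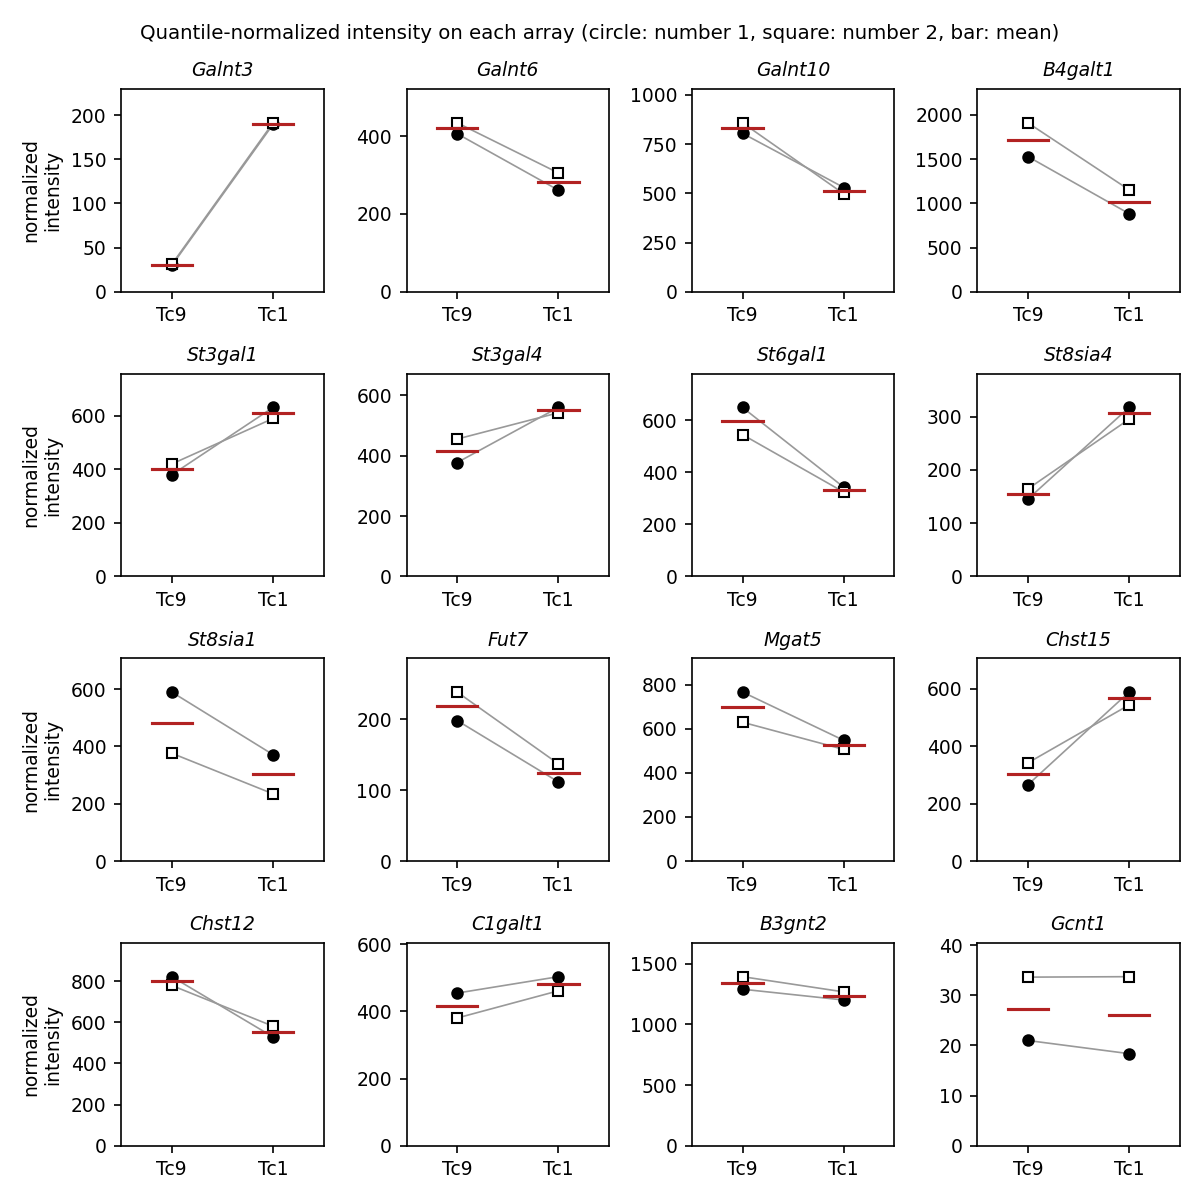
Each panel shows 1 transferase gene, with quantile-normalized intensity on the vertical axis (linear, from 0) for the Tc9 and the Tc1 arrays; circles are arrays numbered 1, squares those numbered 2, grey lines join a number and red bars are the means of the 2 arrays. Galnt3 lies near 30 in Tc9 and 190 in Tc1, while the B4galt1, St6gal1 and Fut7 lines slope down toward Tc1 and the St3gal1, St8sia4 and Chst15 lines slope up.

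The sialyltransferases past the block lay on both sides of 0. St6gal1 places sialic acid in the alpha-2,6 linkage on N-acetyllactosamine, the ligand of the B cell lectin CD22 and a cap known to block binding of galectin-1. It had 649 and 544 in Tc9, against 342 and 324 in Tc1. The groups were well apart, with a log2 difference of 0.81 ± 0.17 (limma adjusted p = 0.168 without and 1.52e-14 with the block).

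The St3gal family makes the alpha-2,3 linkage. Of its 6 genes, 4 (66.7%) passed as lower in Tc9 with the block, against 7.37% of all genes. None passed as higher, against 6.34% of all genes. The family's median log2 difference was -0.43. That median was also -0.42 on the deposited values and -0.44 after median centring. St3gal1, which caps core 1 O-glycans and whose loss in mouse exposes core 1 on CD8 T cells, had 379 and 419 in Tc9, against 630 and 589 in Tc1. Both Tc9 arrays lay below both Tc1 arrays (log2 difference -0.59 ± 0.16; limma adjusted p = 0.337 without and 1.49e-08 with the block).

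St3gal4 and St3gal6 are the enzymes known to sialylate N-acetyllactosamine for selectin ligands. St3gal4 had 377 and 455 in Tc9, against 560 and 542 in Tc1 (log2 difference -0.40 ± 0.17; block adjusted p = 0.000541). St3gal6 had 124 and 101 in Tc9, against 149 and 170 in Tc1 (log2 difference -0.45 ± 0.23; block adjusted p = 0.0230). In both genes the groups lay apart. Neither passed without the block (limma adjusted p = 0.943 for St3gal4 and 1.00 for St3gal6), and both calls were lost when the block fit was run without the intensity trend (adjusted p = 0.0604 for St3gal4 and 0.0513 for St3gal6). St3gal6 was below the negative controls on all 4 arrays, as was St3gal5, the synthase of the ganglioside GM3. St3gal5 had 32.0 and 43.7 in Tc9, against 58.2 and 84.9 in Tc1 (block adjusted p = 0.000611). St3gal3, which acts on N-acetyllactosamine, overlapped, at 268 and 392 in Tc9, against 322 and 375 in Tc1.

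Of the 6 genes of the St8sia family, which joins sialic acids to each other, 1 passed with the block as higher in Tc9 and 1 as lower. That is 16.7% each way, against 6.34% and 7.37% of all genes. St8sia4, a polysialic acid synthase, had 145 and 164 in Tc9, against 317 and 295 in Tc1. The Tc1 arrays were clearly the brighter (log2 difference -0.92 ± 0.19; limma adjusted p = 0.169 without and 2.45e-11 with the block), and only 1 of the 2 Tc9 arrays was above the negative controls. St8sia1, the synthase of the ganglioside GD3, had 589 and 376 in Tc9, against 371 and 234 in Tc1. Its lower Tc9 array lay just above its higher Tc1 array, with the arrays numbered 1 the brighter in both groups. Within each number its log2 difference was 0.65 (adjusted p = 0.983 without and 2.45e-08 with the block).

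The other sialyltransferases were dim. The other 4 St8sia genes and all 4 St6galnac genes, which add sialic acid to N-acetylgalactosamine, were below the negative controls on all 4 arrays. None of them passed with the block. Over all 17 sialyltransferases, 2 were higher in Tc9 with the block (11.8%, against 6.34% of all genes) and 5 lower (29.4%, against 7.37% of all genes). Without the intensity trend, the block fit passed 5 of the 17 in either direction, against 1426 of 19505 genes. St3gal4 and St3gal6 were the calls lost, and of the lower genes St3gal5 and St3gal6 were below the negative controls on all 4 arrays.

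Fut7 was the fucosyltransferase that differed most. It adds the alpha-1,3 fucose that completes sialyl Lewis X, the selectin ligand of T cells, and had 198 and 239 in Tc9, against 112 and 137 in Tc1. Both Tc9 arrays lay above both Tc1 arrays (log2 difference 0.74 ± 0.23; limma adjusted p = 0.491 without and 3.83e-06 with the block). Fut7 passed the negative controls on both Tc9 arrays and neither Tc1 array. By the measured means it was at least 1.21-fold higher in Tc9, a bound that takes no account of the spread between arrays. Fut8, the core fucosyltransferase of N-glycans, had 204 and 185 in Tc9, against 188 and 188 in Tc1, a log2 difference of 0.04 ± 0.20. Fut4, the other leukocyte enzyme of this linkage, was at 14.0 and 17.9 in Tc9, against 15.1 and 19.5 in Tc1, far inside the range of the negative controls. Fut11 passed with the block (141 and 121 in Tc9, against 88.2 and 86.0 in Tc1; block adjusted p = 0.0151), also below the controls. The other 4 Fut genes, Fut1, Fut2, Fut9 and Fut10, were below the controls on all 4 arrays and did not pass.

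Of the 14 Chst sulfotransferases, 1 passed with the block as higher in Tc9 and 1 as lower. That is 7.14% each way, near the 6.34% and 7.37% of all genes. Chst15, which adds the further sulfate that makes chondroitin sulfate E, had 265 and 342 in Tc9, against 588 and 543 in Tc1. Its Tc9 arrays were the lower (log2 difference -0.87 ± 0.18; limma adjusted p = 0.169 without and 3.54e-16 with the block). Chst12, a chondroitin 4-O-sulfotransferase, had 822 and 779 in Tc9, against 529 and 581 in Tc1. It lay the other way (log2 difference 0.52 ± 0.15; adjusted p = 0.407 without and 4.41e-08 with the block). Chst11, another chondroitin 4-O-sulfotransferase, overlapped, at 316 and 269 in Tc9, against 327 and 280 in Tc1. Chst2, which sulfates N-acetylglucosamine in selectin ligands, had 498 and 635 in Tc9, against 578 and 715 in Tc1 and overlapped too. Chst8, which sulfates N-acetylgalactosamine on pituitary hormones, had 249 and 195 in Tc9, against 233 and 187 in Tc1, and its values followed the array number. Of the 14 Chst genes 9 were below the negative controls on all 4 arrays, and none of these passed with the block.

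**Figure D3:**
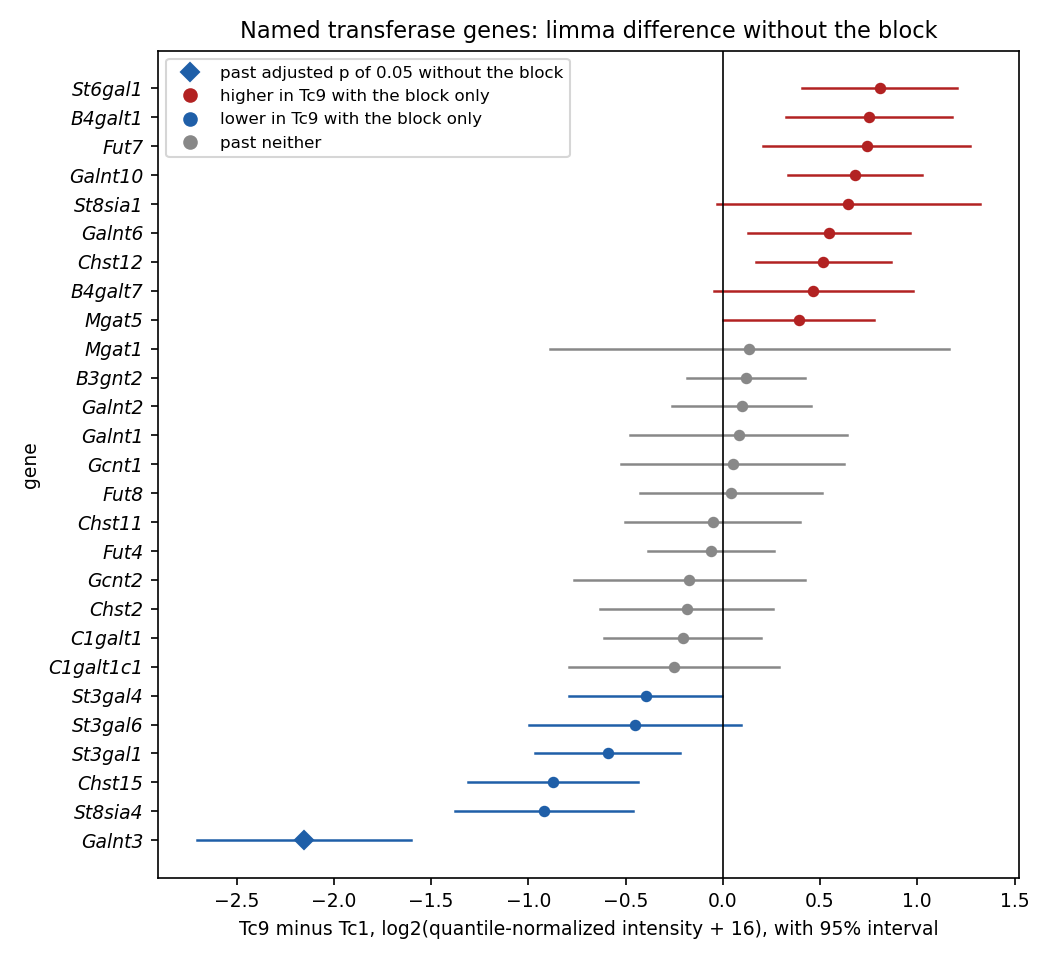
Points are the limma log2 differences, Tc9 minus Tc1, of the 27 named transferase genes without the block, in log2(quantile-normalized intensity + 16), and bars are their 95% intervals. Galnt3 (diamond, -2.15) is the gene past the threshold without the block; red points passed as higher and blue circles as lower with the block only, and grey points passed neither.

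Other genes of glycan supply, assembly, removal and recognition were counted from lists that exclude the transferases. Of 205 such genes, 1 rose in Tc9 and 0 fell in the fit without the block (limma; before adjustment 6 were higher and 6 lower with a p under 0.05, 2.93% each way, against 2.94% and 2.34% of all genes). The one was Cd44, a glycosylated adhesion receptor that binds hyaluronan, with 1882 and 2113 in Tc9, against 610 and 690 in Tc1 (log2 difference 1.60 ± 0.14; adjusted p = 0.00565). With the block, 12 were higher and 16 lower, which is 5.85% and 7.80%, against 6.34% and 7.37% of all genes.

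The 28 measured carriers and readers of glycans gave 5 higher with the block (17.9%, against 6.34% of all genes) and 4 lower (14.3%, against 7.37% of all genes). Their log2 differences ran from -1.20 to 1.60. Selplg and Spn, described next, are both from the higher side, and the 4 lower genes are not described. Selplg, the P-selectin ligand protein, had 4720 and 4578 in Tc9, against 4062 and 3995 in Tc1 (log2 difference 0.21 ± 0.10; limma adjusted p = 1.00 without and 0.000115 with the block). Spn, the mucin CD43, had 674 and 644 in Tc9, against 461 and 464 in Tc1 (log2 difference 0.50 ± 0.15; adjusted p = 0.469 without and 1.40e-06 with the block). In both genes the Tc9 arrays lay above the Tc1 arrays, and the Selplg call was lost when the block fit was run without the intensity trend (adjusted p = 0.294).

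No gene of the other 4 lists passed without the block. With the block, 6.34% of all genes passed as higher in Tc9 and 7.37% as lower. Of 41 genes of sugar nucleotide and sulfate supply, 0 were higher and 5 lower with the block, and Slc35c2, a Golgi transporter linked to fucosylation, had the smallest p (419 and 429 in Tc9, against 534 and 600 in Tc1; limma adjusted p = 0.828 without the block). Of 45 genes of N-glycan assembly and trimming, 1 was higher and 3 lower, led by Edem1, which sorts misfolded glycoproteins for degradation (1125 and 1194 in Tc9, against 1520 and 1779 in Tc1; adjusted p = 0.375 without the block). Of 26 glycan-removing enzymes, 3 were higher and 2 lower, led by Arsb, a lysosomal sulfatase of chondroitin and dermatan sulfate (227 and 241 in Tc9, against 101 and 152 in Tc1; adjusted p = 0.454 without the block). Of 65 other Golgi transferases, 3 were higher and 2 lower, led by Ext1, which polymerises heparan sulfate (976 and 810 in Tc9, against 723 and 544 in Tc1; adjusted p = 0.793 without the block).

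The series as a whole gave 110 genes past the threshold without the block, 75 higher and 35 lower in Tc9, against 13 and 3 on the deposited values and 30 and 22 after median centring. All 4 T cell markers and both CD8 markers measured were above the negative controls on every array, and none passed without the block. With the block, 3 of the 4 T cell markers were higher in Tc9, and their summed intensities were 12054 and 12981 in Tc9, against 10535 and 11038 in Tc1. Of the CD8 markers, Cd8a had 5272 and 4178 in Tc9, against 5305 and 4603 in Tc1, and Cd8b1 had 2447 and 3007 in Tc9, against 2870 and 3724 in Tc1. Only Cd8b1 passed with the block, as lower (log2 difference -0.27 ± 0.17), though its groups overlapped. When the block fit was run without the intensity trend, the Cd8b1 call was lost and 1 of the 4 T cell markers passed. The CD4, natural killer, myeloid, mast cell and erythroid markers measured were below the controls on all 4 arrays. Their summed intensities were 60.1 and 58.8 in Tc9, against 65.8 and 75.6 in Tc1, for CD4 T cells, and 278 and 306 in Tc9, against 247 and 244 in Tc1, for myeloid cells. Of the 4 B cell markers, Cd79b alone passed the controls, on 1 Tc9 array, and their summed intensities were 167 and 246 in Tc9, against 131 and 212 in Tc1. Among the epithelial markers Cdh1, which some T cells also express, had 220 and 266 in Tc9, against 72.7 and 79.3 in Tc1 (limma adjusted p = 0.0503), Epcam passed on some arrays in both groups, and Krt8 and Krt18 on none. The 4 epithelial markers summed to 489 and 521 in Tc9, against 297 and 349 in Tc1. With the block, 1 B cell, 1 myeloid and 1 epithelial marker passed, each as higher in Tc9. No CD4, natural killer, mast cell or erythroid marker passed with the block. The part of other cells in the transferase differences was not tested. Over all genes the log2 values correlated at 0.985 between the Tc9 arrays and 0.987 between the Tc1 arrays, beside 0.987 and 0.990 between the Tc9 and Tc1 arrays of 1 number. The arrays numbered 1 and 2 had median deposited intensities of 37.9 and 57.1 in Tc9 and of 37.1 and 57.3 in Tc1.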

How the data were processed

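The authors deposited 1 intensity per probe set and array, on a linear scale read from the values (up to 13711). The labels used here name no background correction, summarization or software. RNA was extracted with Trizol and labelled with biotin, per the labels. Of 28846 probe sets, 6640 were controls, 2634 others had no gene name here, and 19572 had 1 symbol; the highest-mean probe set was kept for each gene. Array medians of named probe sets differed by 0.543 in log2, so intensities were quantile normalized, 16 was added and log2 taken. These log2 values were computed here from the deposited intensity. A fold on this scale understates the change of dim genes. R 4.3.3 and limma 3.58.1 (lmFit, then eBayes, intensity trend on, 2 residual and 5.09 prior degrees of freedom) gave Tc9 minus Tc1, with Benjamini-Hochberg adjustment over 19505 genes. The procedure was tested on simulated data in which the spread depended on intensity alone. The block fit assumes the same, so that test cannot show whether its p-values are too small.

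Deposited values were written with more digits (median 10) for number 1 than for number 2 (median 7), and their medians differ, so the number was also fitted as a block, and differences are given within each number. Culture and array processing cannot be told apart behind that number. A bound sets the brighter group's mean against the lowest signal above the negative controls on each dim array. It takes no account of the spread between arrays.

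The members and lists were chosen with earlier results of these data known. Genes named are those past the threshold, the members with the largest differences whose groups did not overlap and which were above the negative controls in a group (16 met this, of a limit of 20), 21 chosen by function, and the leading gene of each list. Others (Galnt9, B3galt4, B4galt3, B4galt5, B3gnt3, B3galt6, Galnt7, Galnt12, Chst8, Mgat2, St3gal3, St3gal5, Fut11, Selplg, Spn) were chosen after their values were seen.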

Additional observations from a re-analysis of the deposited data

How the results depend on the processing

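Galnt3 passed in every setting tried except the deposited values without quantile normalization, where 0 transferases, 16 of all genes and 0 other glycan genes passed. With the replicate block these counts were 19, 2674 and 28, and all 110 genes passing without the block passed with it. The replicate block without the intensity trend, chosen after seeing the data, gave 18, 1426 and 15; it lost St3gal4 and St3gal6 and added Gcnt4. Median centring gave 52 of all genes and 0 other glycan genes, and no intensity trend gave 56 of all genes. Dropping genes below the 25th percentile of mean level gave 2 other glycan genes, Cd44 and Cd69. Leaving out 1 array gave 1 to 4 transferases, 186 to 274 of all genes and 2 to 4 other glycan genes, and moved the transferase median between -0.0179 and 0.0511. B4galt1 then passed without Tc9 replicate 1 (limma adjusted p = 0.00435) or Tc1 replicate 2 (0.0121), and Chst15 (0.00744), St6gal1 (0.0370) and St8sia1 (0.0350) without Tc9 replicate 2; the array left alone in its group is assumed to vary like the others. All 19 transferases past the replicate block kept their sign in every setting, and no call reversed. Most settings could not have changed a sign, because the groups of all 19 did not overlap and each gene has 1 probe set. Only the deposited values and median centring could have done so, so the kept signs say little. The cause of the changes in the counts was not tested. Arrays with 1 number deviated together, with a correlation over 19505 genes of 0.729 between the number differences of Tc9 and of Tc1. With 2 arrays per group, and 59 of 93 transferases inside the range of the negative controls, precision is limited by their number and by signal over background.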
